A study of Homo sapiens with 9 samples.

Results

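The genes examined here belong to the unfolded protein response and to the ATF4 stress response, and were given as a list of 36 symbols. Each symbol was matched to a gene identifier of the deposited count table through the GENCODE v44 annotation, without the version of the identifier. All 36 symbols matched, out of 60649 identifiers in the table. They comprised ATF4 and 4 partner factors, 4 feedback and stress effectors, 5 genes of amino acid and one-carbon synthesis, 3 amino acid transporters, 3 sensors of endoplasmic reticulum (ER) stress together with XBP1, 12 ER chaperones and folding factors, and 3 genes of ER-associated degradation. The libraries came from OVCAR5, an established human ovarian cancer cell line. Lentiviral transduction and puromycin selection were common to every group, and RNA was sequenced in 3 libraries each of the groups labelled NC (control), SM2 and SM4 (both described as METTL3 knockdown). METTL3 is the enzyme that writes the m6A mark on RNA. Which hairpin SM2 and SM4 carry is not stated, the control is called parental in the design text and a control hairpin in the methods, and 1 label field names other OVCAR lines for the SM4 libraries although the cell line field reads OVCAR5. It is also not stated whether the libraries of a group came from separate cultures, so p-values measure the spread between these libraries, which may be technical.

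The ER folds proteins that are secreted or placed in membranes. When unfolded proteins build up there, the sensors IRE1 (gene ERN1), PERK (EIF2AK3) and ATF6 signal to the nucleus: IRE1 splices the XBP1 messenger RNA, ATF6 is cut to release a transcription factor, and PERK phosphorylates the initiation factor eIF2, which slows translation in general but favours translation of ATF4. XBP1 and ATF6 turn on chaperones and degradation factors. ATF4 turns on genes for making and importing amino acids, and it is also raised by kinases that sense amino acid shortage, viral RNA or heme shortage, without ER stress. Because ATF4 protein is set largely by translation and XBP1 by splicing, counts per gene show neither activity directly.

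Totals ranged from 44103272 to 63693728 counts per library, so that a level of 1 CPM (counts scaled to the library total) stood for 44.1 to 63.7 counts, and the 36 genes together took 0.957% to 0.975% of the counts. The METTL3 transcript went against the labels: it was at 36.3, 34.4 and 36.6 CPM in the libraries labelled NC, 37.1, 39.8 and 40.01 CPM in those labelled SM2 and 60.6, 57.5 and 62.4 CPM in those labelled SM4, with a log2 fold change of 0.75 in SM4 against NC (adjusted p 2.21e-09) and 0.12 in SM2 against NC (adjusted p 0.12). In SM4 against SM2 it was 0.63 (adjusted p 7.46e-08), so that the transcript was highest in a group labelled as knockdown and low in the group labelled as control. In the study's own gene list METTL3 has log2 fold changes of the same sizes, 0.75 and 0.63, for its hairpins against control. Both are negative there. PECAM1, described below, has 1.32 there for the first of these hairpins, also negative. Such values would arise if the labels NC and SM4 were exchanged. The whole list was not compared, and whether the labels were exchanged was not settled here. Group names below are therefore labels only, and "rose" and "fell" give the direction as labelled, not the direction of a METTL3 knockdown. If the labels NC and SM4 were exchanged, each SM4 against NC direction would turn round. The comparison of SM2 with its control would then be SM4 against SM2 with its sign turned. SM2 against NC would then compare knockdown groups with each other. The 5 epithelial markers (EPCAM, KRT8, KRT18, KRT19, CDH1) summed to 9850 to 10179 CPM in NC, 11289 to 11871 CPM in SM2 and 10953 to 11430 CPM in SM4. The 6 markers of blood, endothelial and fibroblast cells summed to 26.7 to 29.98 CPM in NC, 30.5 to 35.7 CPM in SM2 and 34.5 to 40.02 CPM in SM4. PTPRC, the blood cell marker, had 0 to 4 counts, whereas PECAM1, an endothelial gene, rose in SM4 against NC (log2 fold change 1.32, adjusted p 2.29e-09). COL1A1 and PECAM1 made up most of that sum, and the part of these markers in the results below was not tested. SM2 replicate 3 stood apart from its group: the chi-square of counts per degree of freedom was 16.1 and 13.4 in its pairs and 4.16 to 6.01 in the other 7 replicate pairs.

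The response was uneven between its branches. Most ATF4-linked members whose levels changed were higher in the libraries labelled SM2 and SM4 than in NC, whereas the ER folding genes that changed in SM4 were all lower. Of the 35 members with enough counts to be tested (NUPR1, a stress-induced cofactor, had 0 to 6 counts), 13 rose and 2 fell in SM2 against NC, and 10 rose and 7 fell in SM4 against NC. Changes were called at an adjusted p below 0.05 in edgeR's quasi-likelihood test over 19674 genes. By that rule 22.3% of all tested genes were called in SM2 against NC (12% higher and 10.3% lower) and 21.2% in SM4 against NC (11% higher and 10.2% lower). More abundant genes were called more often: of the 9841 genes with a mean of at least 10 CPM, 32.4% were called in SM2 and 31.1% in SM4, beside 14 and 17 of the 32 members at that level. The libraries of the 2 groups did not overlap for 18 of 35 members in SM2 against NC (35.2% of all genes) and for 28 of 35 in SM4 against NC (38.4% of all genes). Both comparisons use the same NC libraries, so the 2 sets of values are not independent. In bulk RNA, fewer cells that make a transcript and less of it per cell cannot be told apart.

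**Figure D1:**
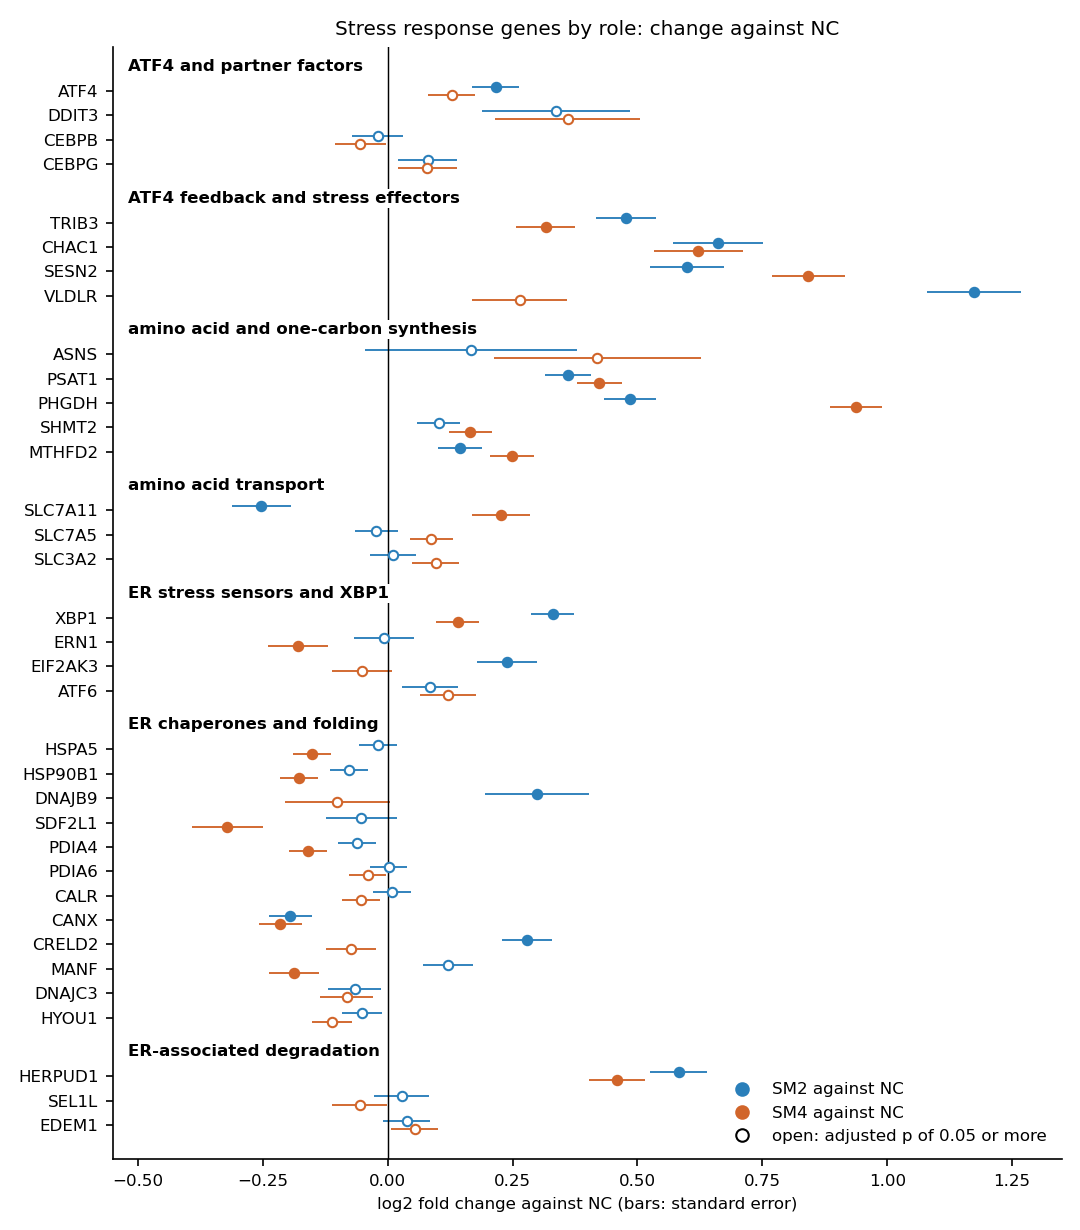
Log2 fold change against NC (x axis) of the 35 tested members, grouped by role, for SM2 (blue) and SM4 (orange), with standard errors as bars and open points where the adjusted p was 0.05 or more. The ATF4 effectors and synthesis genes lie right of 0, and the 12 ER folding genes lie left of 0 in SM4, from -0.32 for SDF2L1 to -0.04 for PDIA6.

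ATF4, the transcription factor of the amino acid and stress branch (chromosome 22, 39519695 to 39522683, GRCh38), rose in SM2 and stood just short of the threshold in SM4. Its level was 303, 315 and 298 CPM in the NC libraries, 335, 346 and 382 CPM in the SM2 libraries and 324, 343 and 334 CPM in the SM4 libraries. All SM2 and all SM4 libraries lay above every NC library. The log2 fold change was 0.22 (± 0.0475 standard error, adjusted p 0.00212) in SM2 against NC and 0.13 (± 0.0475 standard error, adjusted p 0.061) in SM4 against NC. The SM4 value passed the threshold in 8 of 17 alternative fits, among them DESeq2 (adjusted p 0.0345) and the fit without SM2 replicate 3 (adjusted p 0.00498). DDIT3, which encodes the pro-apoptotic factor CHOP, was at a low level, with 2.10, 2.24 and 2.41 CPM in the NC libraries, 2.52, 3.16 and 2.87 CPM in the SM2 libraries and 2.98, 2.86 and 2.85 CPM in the SM4 libraries. Its log2 fold changes were 0.34 (± 0.148 standard error, adjusted p 0.115) and 0.36 (± 0.146 standard error, adjusted p 0.0887), with all libraries above NC but no call. DDIT3 shares 27.2% of its exon bases with MARS1 on the other strand, a gene with 9225 to 16468 counts per library, and the strand setting of the counting is not stated, so the DDIT3 value is uncertain. MARS1 itself rose, with log2 fold changes of 0.20 (adjusted p 0.000745) in SM2 and 0.28 (adjusted p 2.16e-05) in SM4 against NC. Whether its reads enter the DDIT3 counts was not tested. CEBPB and CEBPG, which pair with ATF4 on DNA, were not called in either comparison. Both stayed near NC, with log2 fold changes between -0.06 and 0.08, and CEBPB, which spread widely in SM2, was at 141, 149 and 146 CPM in NC and 132, 143 and 155 CPM in SM2.

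All 4 feedback and stress effectors rose in SM2, and 3 of the 4 rose in SM4. CHAC1, an enzyme that degrades glutathione (chromosome 15, 40952962 to 40956512), was at 12.8, 14.4 and 10.9 CPM in the NC libraries, 18.3, 19.97 and 21.8 CPM in the SM2 libraries and 19, 19.5 and 19.99 CPM in the SM4 libraries. Each SM2 and SM4 library exceeded every NC library, with log2 fold changes of 0.66 (± 0.0901 standard error, adjusted p 1.55e-05) and 0.62 (± 0.0895 standard error, adjusted p 2.72e-05). SESN2, a leucine sensor that restrains mTORC1 (chromosome 1, 28259518 to 28282491), was at 12.7, 12.2 and 12.2 CPM in the NC libraries, 19.3, 20.1 and 16.9 CPM in the SM2 libraries and 21.9, 21.9 and 22.8 CPM in the SM4 libraries. The 3 groups formed separate steps, with log2 fold changes of 0.60 (± 0.0745 standard error, adjusted p 4.88e-06) in SM2 against NC and 0.84 (± 0.0734 standard error, adjusted p 3.36e-08) in SM4 against NC. TRIB3, a pseudokinase that feeds back on ATF4, was at 44, 47.9 and 41.6 CPM in the NC libraries, 61.5, 59.8 and 64.5 CPM in the SM2 libraries and 51.6, 58.7 and 56 CPM in the SM4 libraries. It rose in SM2 by 0.48 (± 0.0601 standard error, adjusted p 5.83e-06) and in SM4 by 0.32 (± 0.0599 standard error, adjusted p 0.000542) on the log2 scale. VLDLR, a lipoprotein receptor induced through ATF4, went its own way, with 4.97, 4.97 and 4.66 CPM in the NC libraries, 11.1, 10.9 and 11 CPM in the SM2 libraries and 5.63, 5.84 and 6.07 CPM in the SM4 libraries. In SM2 its 3 libraries lay within 10.9 to 11.1 CPM and its log2 fold change was 1.17 (± 0.0936 standard error, adjusted p 1.24e-08), the largest of any member. In SM4 it was 0.26 (± 0.0959 standard error, adjusted p 0.0563), with all libraries above NC but no call.

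Of the 5 genes of amino acid and one-carbon synthesis, 3 rose in SM2 and 4 rose in SM4. PHGDH, the entry enzyme of serine synthesis (chromosome 1, 119648411 to 119744218), was at 72.6, 76.7 and 68.8 CPM in the NC libraries, 98.5, 99.4 and 107 CPM in the SM2 libraries and 133, 142 and 143 CPM in the SM4 libraries. No library of any group reached into the range of another group, and the log2 fold changes were 0.49 (± 0.0518 standard error, adjusted p 7.13e-07) in SM2 against NC and 0.94 (± 0.0516 standard error, adjusted p 4.58e-11) in SM4 against NC. PSAT1, which carries out the next step (chromosome 9, 78297125 to 78330093), was at 147, 159 and 142 CPM in the NC libraries, 191, 191 and 194 CPM in the SM2 libraries and 196, 207 and 198 CPM in the SM4 libraries. It rose by 0.36 (± 0.0455 standard error, adjusted p 5.7e-06) in SM2 and 0.42 (± 0.0454 standard error, adjusted p 6.34e-07) in SM4, and its SM2 libraries spread far less than those of NC. MTHFD2, the mitochondrial folate enzyme, was at 248, 262 and 233 CPM in the NC libraries, 273, 275 and 275 CPM in the SM2 libraries and 292, 302 and 289.9 CPM in the SM4 libraries. Its log2 fold changes were 0.15 (± 0.0442 standard error, adjusted p 0.0215) and 0.25 (± 0.0442 standard error, adjusted p 0.00029), and the call in SM2 was lost without NC replicate 1 (0.14, adjusted p 0.0797), NC replicate 3 (0.10, adjusted p 0.152) or SM2 replicate 2 (0.14, adjusted p 0.075). SHMT2, which passes the carbon of serine to folate in mitochondria, was at 192, 204 and 199.998 CPM in the NC libraries, 214, 206 and 220.4 CPM in the SM2 libraries and 216, 228 and 224 CPM in the SM4 libraries. It rose in SM4 by 0.17 (± 0.043 standard error, adjusted p 0.0082), a call lost without NC replicate 1 (0.14, adjusted p 0.0687), and was not called in SM2, where its log2 fold change was 0.10 (adjusted p 0.0984). ASNS, asparagine synthetase and a standard ATF4 readout, was at a low level too. It was at 1.71, 1.66 and 1.69 CPM in the NC libraries, 1.18, 2.23 and 2.25 CPM in the SM2 libraries and 2.22, 2.03 and 2.54 CPM in the SM4 libraries, with log2 fold changes of 0.17 (± 0.212 standard error, adjusted p 0.645) and 0.42 (± 0.207 standard error, adjusted p 0.17). These amount to 54 to 135 counts per library, and 49.3% of its exon bases are shared with a noncoding gene on the same strand, so that its value is uncertain.

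Of the 3 transporters, SLC7A11 was called against NC, in opposite directions in SM2 and SM4. SLC7A11, the cystine importer that feeds glutathione synthesis (chromosome 4, 138164097 to 138242349), was at 185, 190.3 and 164 CPM in the NC libraries, 155, 159 and 138 CPM in the SM2 libraries and 222, 205 and 204 CPM in the SM4 libraries. The SM2 libraries all lay below NC and the SM4 libraries all above it. Its log2 fold change was -0.25 (± 0.0588 standard error, adjusted p 0.00321) in SM2 and 0.23 (± 0.0584 standard error, adjusted p 0.00729) in SM4. The call in SM4 was lost without NC replicate 3 (0.16, adjusted p 0.0689) or SM4 replicate 1 (0.19, adjusted p 0.0583). SLC7A5 and SLC3A2 form the leucine importer, as light and heavy chain. SLC7A5 was at 1051, 1078 and 1027 CPM in the NC libraries, 1063, 1074 and 969.8 CPM in the SM2 libraries and 1076, 1156 and 1122 CPM in the SM4 libraries. SLC3A2 was at 400.3, 423 and 401 CPM in the NC libraries, 393, 395 and 445 CPM in the SM2 libraries and 433, 440.5 and 435 CPM in the SM4 libraries. Neither was called, with SLC7A5 at -0.02 in SM2 and 0.09 (adjusted p 0.175) in SM4, and SLC3A2 at 0.01 in SM2 and 0.10 (adjusted p 0.162) in SM4, as log2 fold changes.

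**Figure D2:**
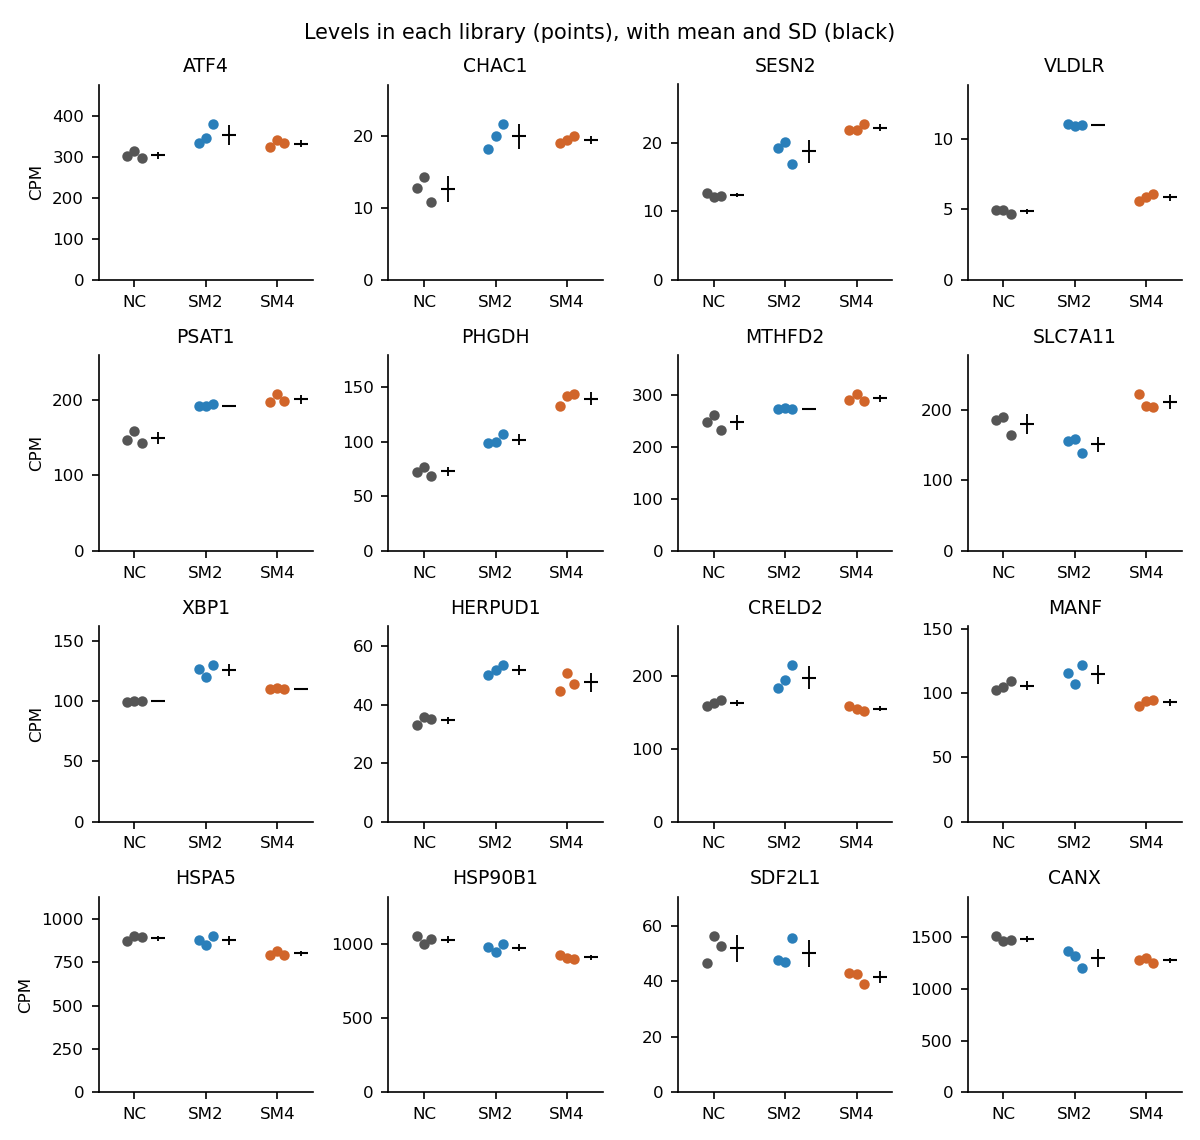
Level in CPM (y axis, from 0) of 16 members in each of the 3 libraries labelled NC, SM2 and SM4 (points), with the group mean and SD in black. PHGDH steps up from NC through SM2 to SM4, SLC7A11 is below NC in SM2 and above it in SM4, VLDLR is high in SM2, and HSPA5, HSP90B1, SDF2L1 and MANF are lowest in SM4.

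Control elements known for the branches were searched in RefSeq promoter windows of GRCh38.p14. The windows reach from 250 bases before to 50 bases after each start site, and both strands were read. The ER stress element (ERSE), bound by ATF6 and XBP1 with NF-Y, was searched as CCAAT, 9 bases of any kind, then CCACG. Its shorter form, ERSE-II, was searched as ATTGG, 1 base, then CCACG, the unfolded protein response element (UPRE) as TGACGTGG, and the CEBP-ATF response element (CARE), bound by ATF4 with a CEBP partner, as TGATGNAA. UPRE and ERSE-II can overlap, as they do in HYOU1. Windows were found for 33 members and for 27305 genes in all. An ERSE was present in 0.0916% of all genes but in 6 of the 12 ER folding genes (CALR, CANX, CRELD2, HSP90B1, HSPA5 and PDIA6) and in XBP1. ERSE-II was present in 0.0696% of all genes, and in HYOU1, SDF2L1 and HERPUD1. UPRE was present in 0.927% of all genes, and in HYOU1. CARE was present in 4.46% of all genes and in 5 of the 33 members (ASNS, SLC3A2, CHAC1, CEBPG and HERPUD1), none of them an ER folding gene. Of the 6 amino acid genes with a window 2 held it, and of the 4 feedback and stress effectors 1. HERPUD1 held both an ERSE-II and a CARE. A match describes the letters and not binding, and a missing match says only that the letters are not in this window. The stretches below are those of some of the members with a match, written along the gene's strand, with the element in capitals.
HSPA5 (chr9:125241379-125241421, minus strand): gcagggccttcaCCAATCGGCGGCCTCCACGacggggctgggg
HSP90B1 (chr12:103930211-103930239, plus strand): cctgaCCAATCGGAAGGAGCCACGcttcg
CANX (chr5:179698773-179698801, plus strand): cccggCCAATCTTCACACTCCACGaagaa
CRELD2 (chr22:49918542-49918584, plus strand): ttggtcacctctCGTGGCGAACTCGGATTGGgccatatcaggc
SDF2L1 (chr22:21642102-21642136, plus strand): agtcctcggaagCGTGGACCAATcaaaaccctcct
XBP1 (chr22:28800591-28800633, minus strand): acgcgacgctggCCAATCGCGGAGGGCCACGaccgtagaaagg
HERPUD1 (chr16:56931954-56932047, plus strand): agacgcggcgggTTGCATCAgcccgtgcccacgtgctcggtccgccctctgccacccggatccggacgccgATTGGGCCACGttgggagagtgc
CHAC1 (chr15:40953257-40953274, plus strand): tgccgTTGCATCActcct
ASNS (chr7:97872464-97872481, minus strand): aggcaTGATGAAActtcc
The capitals mark an ERSE in HSPA5, HSP90B1, CANX and XBP1, an ERSE on the other strand in CRELD2, an ERSE-II on the other strand in SDF2L1, a CARE on the other strand followed by an ERSE-II in HERPUD1, and a CARE in ASNS and, on the other strand, in CHAC1. HSP90B1 holds a second ERSE closer to its start site, on the other strand. The HSP90B1, ASNS and CHAC1 elements lie upstream of the RefSeq start but inside the 5′ untranslated region of longer annotated transcripts. The CANX element lies upstream of some of its RefSeq starts and spans another, and is also inside the 5′ untranslated region of annotated transcripts.

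Among the ER stress sensors and XBP1, XBP1 and EIF2AK3 rose in SM2, while in SM4 XBP1 rose and ERN1 fell. XBP1 (chromosome 22, 28794555 to 28800597) was at 99.4, 100.4 and 100.5 CPM in the NC libraries, 127, 120.2 and 130.005 CPM in the SM2 libraries and 110.1, 111 and 109.8 CPM in the SM4 libraries. The 3 groups did not overlap, and the log2 fold change was 0.33 (± 0.0434 standard error, adjusted p 1.02e-05) in SM2 and 0.14 (± 0.0433 standard error, adjusted p 0.0244) in SM4. The SM4 call was lost when any 1 of the NC or SM4 libraries was left out, with log2 fold changes of 0.14 to 0.15 and adjusted p values of 0.0677 to 0.0962. EIF2AK3, the kinase PERK, was at 26, 25 and 24.8 CPM in the NC libraries, 30.01, 31 and 28.4 CPM in the SM2 libraries and 24.2, 23.6 and 25.2 CPM in the SM4 libraries. It rose in SM2 by 0.24 (± 0.0597 standard error, adjusted p 0.00566) and had a log2 fold change of -0.05 (adjusted p 0.622) in SM4, where the libraries overlapped those of NC. ERN1, the kinase and nuclease IRE1, was at 51.6, 49 and 49.1 CPM in the NC libraries, 51.9, 51.9 and 45.1 CPM in the SM2 libraries and 42.5, 42.9 and 46.8 CPM in the SM4 libraries. It fell in SM4, with a log2 fold change of -0.18 (± 0.0601 standard error, adjusted p 0.0376), and its SM2 libraries overlapped NC (-0.01, adjusted p 0.949). The SM4 call was lost without any single NC library, without SM4 replicate 1 or 2, and with upper-quartile normalization, where adjusted p values ran from 0.0619 to 0.173. ATF6 was at 49.3, 46.9 and 45.6 CPM in the NC libraries, 53.9, 49.6 and 47 CPM in the SM2 libraries and 49.9, 52.3 and 52 CPM in the SM4 libraries, and was not called, at 0.09 (adjusted p 0.322) in SM2 and 0.12 (adjusted p 0.14) in SM4 on the log2 scale. Of the other kinases that phosphorylate eIF2, EIF2AK4 (GCN2, the sensor of amino acid shortage) fell in both comparisons, with log2 fold changes of -0.34 (adjusted p 0.000109) in SM2 and -0.23 (adjusted p 0.00311) in SM4. EIF2AK2 (PKR, the sensor of double-stranded RNA) rose in SM4 by 0.28 (adjusted p 0.000831) and had a log2 fold change of -0.16 (adjusted p 0.0534) in SM2. EIF2AK1 (HRI, the heme-regulated kinase) rose in SM2 by 0.17 (adjusted p 0.00945) and had a log2 fold change of 0.11 (adjusted p 0.0998) in SM4.

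The ER folding genes were on both sides of NC in SM2 and below it in SM4. In SM4 against NC, 6 of the 12 fell, and the estimates of the other 6 also lay below 0, from -0.11 to -0.04. In SM2 against NC, 2 rose, 1 fell and 5 of the 12 estimates lay above 0. HSPA5, the main ER chaperone, known as BiP or GRP78 (chromosome 9, 125234853 to 125241382), was at 873, 899.7 and 894 CPM in the NC libraries, 880.4, 848 and 903 CPM in the SM2 libraries and 794, 815 and 794 CPM in the SM4 libraries. The SM4 libraries lay below all others, and the log2 fold change was -0.15 (± 0.0377 standard error, adjusted p 0.00609) in SM4 and -0.02 (± 0.0377 standard error, adjusted p 0.773) in SM2. Without SM4 replicate 1 the SM4 call was lost (-0.14, adjusted p 0.0515). HSP90B1, the ER form of the HSP90 chaperone (GRP94), was at 1057, 1004 and 1035 CPM in the NC libraries, 983, 951 and 1001 CPM in the SM2 libraries and 929, 907 and 899.8 CPM in the SM4 libraries. It fell in SM4, with a log2 fold change of -0.18 (± 0.0378 standard error, adjusted p 0.00154), and had a log2 fold change of -0.08 (adjusted p 0.16) in SM2, where the libraries also lay below NC. SDF2L1, a cofactor of HSPA5 (chromosome 22, 21642302 to 21644299), was at 46.7, 56.4 and 52.7 CPM in the NC libraries, 47.8, 47 and 55.5 CPM in the SM2 libraries and 43, 42.7 and 39.2 CPM in the SM4 libraries. Its decrease in SM4 was the largest among the folding genes, with a log2 fold change of -0.32 (± 0.0707 standard error, adjusted p 0.00217), while its SM2 libraries overlapped NC (-0.05, adjusted p 0.661). PDIA4, a protein disulfide isomerase, was at 571, 565 and 569 CPM in the NC libraries, 546, 538 and 549 CPM in the SM2 libraries and 497, 524 and 505 CPM in the SM4 libraries. It fell in SM4, with a log2 fold change of -0.16 (± 0.0376 standard error, adjusted p 0.00364), and its log2 fold change in SM2 was -0.06 (adjusted p 0.267). CANX, the lectin chaperone calnexin, was at 1514, 1463 and 1475 CPM in the NC libraries, 1369.98, 1318 and 1201 CPM in the SM2 libraries and 1285, 1300.5 and 1249.9 CPM in the SM4 libraries. It was the 1 folding gene that fell in both comparisons, with log2 fold changes of -0.20 (± 0.0433 standard error, adjusted p 0.00229) and -0.22 (± 0.0433 standard error, adjusted p 0.000989).

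MANF, CRELD2 and DNAJB9, which encode a secreted ER-resident survival factor, a disulfide isomerase-like protein and a J-domain partner of HSPA5, were above the NC mean in SM2 and below it in SM4. MANF was at 103, 105 and 109 CPM in the NC libraries, 116, 107 and 122 CPM in the SM2 libraries and 90.01, 94 and 94.7 CPM in the SM4 libraries. It fell in SM4, with a log2 fold change of -0.19 (± 0.0499 standard error, adjusted p 0.00936), and had one of 0.12 (adjusted p 0.0949) in SM2. The SM4 call was lost without NC replicate 3 (-0.16, adjusted p 0.0574) or SM4 replicate 1 (-0.16, adjusted p 0.0772). CRELD2 was at 159.6, 163 and 167 CPM in the NC libraries, 184, 194 and 215 CPM in the SM2 libraries and 159, 154 and 152 CPM in the SM4 libraries. It rose in SM2 by 0.28 (± 0.0502 standard error, adjusted p 0.000331) and had a log2 fold change of -0.07 (adjusted p 0.356) in SM4, where all libraries lay below NC by a small margin. DNAJB9 was at 9.97, 12.3 and 11.2 CPM in the NC libraries, 12, 14 and 15.1 CPM in the SM2 libraries and 9.21, 11.6 and 10.4 CPM in the SM4 libraries. It was called in SM2, with a log2 fold change of 0.30 (± 0.104 standard error, adjusted p 0.045), although the libraries overlapped NC and the call did not survive in 5 of the 9 fits with 1 library left out, those without NC replicate 1 or 3, SM2 replicate 2 or 3, or SM4 replicate 3 (log2 fold changes 0.22 to 0.30, adjusted p 0.0573 to 0.199). The other folding genes were not called in either comparison in the edgeR fit with the group alone. Calreticulin (CALR), which works with calnexin, ranged from 918 to 999.9 CPM over the 9 libraries, the disulfide isomerase PDIA6 from 454 to 482 CPM, the HSPA5 cofactor DNAJC3 from 122 to 145 CPM and the chaperone HYOU1 from 366 to 405 CPM. HYOU1 came nearest to the threshold, with a log2 fold change of -0.11 (adjusted p 0.0551) in SM4 and all SM4 libraries below NC, and DESeq2 (adjusted p 0.0408) and edgeR with the replicate number as a block (adjusted p 0.0494) called it lower there.

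Of the ER-associated degradation members, HERPUD1 rose in both groups. HERPUD1, a membrane protein that recruits the degradation machinery (chromosome 16, 56932142 to 56944864), was at 33.2, 35.6 and 35.1 CPM in the NC libraries, 50.3, 52 and 53.5 CPM in the SM2 libraries and 44.8, 51 and 47.2 CPM in the SM4 libraries. All SM2 and SM4 libraries lay above NC, with log2 fold changes of 0.58 (± 0.0572 standard error, adjusted p 2.26e-07) and 0.46 (± 0.057 standard error, adjusted p 4.4e-06). SEL1L, the scaffold of the HRD1 ligase, was at 208 to 253 CPM, and EDEM1, which marks misfolded glycoproteins, at 95.5 to 105 CPM. Neither was called, with log2 fold changes between -0.06 and 0.05 in the comparisons with NC.

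Set side by side, the amino acid genes stood above and the ER folding genes below NC in SM4, with a narrower gap in SM2. In SM4 against NC the 8 amino acid genes had a median log2 fold change of 0.24, with 5 higher and 8 of 8 estimates above 0, and the 12 ER folding genes had a median of -0.13, with 6 lower and 12 of 12 estimates below 0. In SM2 against NC the medians were 0.12, with 3 higher and 1 lower, and -0.04, with 2 higher and 1 lower. The medians over all tested genes were 0.00 in both comparisons (-0.001 in SM4 and -0.004 in SM2). In SM4 against NC 50.2% of all tested genes had an estimate below 0, and 54.7% of those with a mean of at least 10 CPM. Of genes at that level 14.1% were called higher and 17% lower in SM4, and 15.1% and 17.3% in SM2. The gap between the medians was 0.37 in SM4 and 0.16 in SM2. The same can be followed in each library as the mean distance from the NC mean on the log2 CPM scale. The amino acid genes stood at 0.30, 0.33 and 0.34 in the SM4 libraries, at 0.04, 0.15 and 0.16 in the SM2 libraries and between -0.05 and 0.05 in NC. The ER folding genes stood at -0.16, -0.11 and -0.15 in the SM4 libraries, at 0.01, 0.00 and 0.04 in the SM2 libraries and between -0.02 and 0.02 in NC. The difference of the 2 gene groups was 0.464 ± 0.0313 in SM4, 0.102 ± 0.0624 in SM2 and 0 ± 0.0586 in NC, which is 0 by construction (SD, n = 3). It was above the NC range in every SM4 library, whereas SM2 replicate 1, at 0.03, lay inside it. In that library PHGDH, PSAT1, MTHFD2 and SHMT2 lay above all NC libraries, and ASNS, SLC7A11 and SLC3A2 below them. ASNS, whose value is uncertain, was at 1.18 CPM there and at 1.66 to 1.71 CPM in NC, and weighs as much as each other gene. The difference without ASNS was not computed. In SM2 the gap between medians moved with single libraries: it was 0.086 without SM2 replicate 2 and 0.065 without SM2 replicate 3. In these fits PHGDH stayed at 0.50 and 0.45 and PSAT1 at 0.36 and 0.36, as log2 fold changes. ASNS was at 2.23 and 2.25 CPM in the libraries left out and at 1.18 CPM in SM2 replicate 1. Its part in the smaller gap was not tested. The members were chosen as a list, so no p is given over them.

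**Figure D3:**
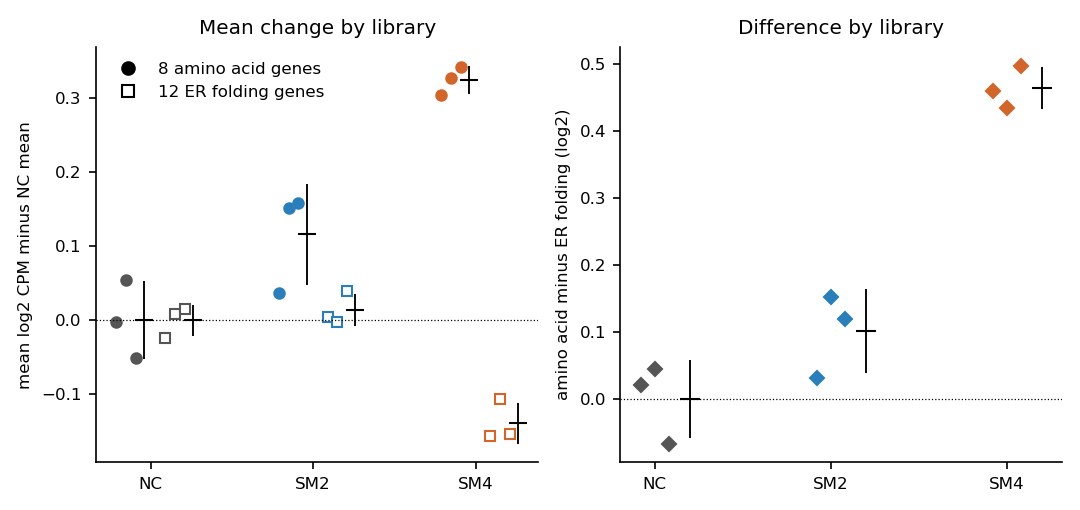
Left, mean log2 CPM relative to the NC mean (y axis) of the 8 amino acid genes (circles) and the 12 ER folding genes (squares) in each library. Right, the difference of the 2 per library, with means and SD in black: the SM4 libraries lie between 0.43 and 0.50, the SM2 libraries between 0.03 and 0.15, and the NC libraries between -0.07 and 0.05.

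ER stress elements were found both in folding genes that fell in SM4 and in others. Of the 8 ER folding genes with an ERSE, ERSE-II or UPRE, 4 fell in SM4 against NC (HSPA5, HSP90B1, SDF2L1 and CANX), as did 2 of the 4 without one (PDIA4 and MANF). XBP1 and HERPUD1, which carry such elements too, rose. Of the 25 genes with an ERSE in their window, 16 were tested, of which 1 rose and 5 fell in SM4 against NC with a median of -0.09. The 9 of them that are not members had 2 lower and a median of -0.09. With genes that hold an ERSE-II included, 21 non-members had 2 higher and 3 lower, with a median of -0.06. The 347 tested genes with a CARE had a median of 0.00 in SM4 against NC, with 54 higher and 53 lower. Over all tested genes the shares were 11% higher and 10.2% lower. Among genes with a mean of at least 10 CPM they were 14.1% and 17%.

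Compared directly, the SM4 and SM2 libraries differed at 11 of the 35 members, 3 higher and 8 lower in SM4, where 12.8% of all tested genes were called (6.04% higher and 6.76% lower). The libraries of the 2 groups did not overlap for 19 members (28.3% of all genes). The members higher in SM4 were amino acid and nutrient genes: SLC7A11, with a log2 fold change of 0.48 (± 0.0586 standard error, adjusted p 7.49e-06), PHGDH with 0.45 (± 0.051 standard error, adjusted p 2.67e-06), and SESN2 with 0.24 (± 0.0715 standard error, adjusted p 0.0274). The SESN2 call was lost without SM2 replicate 3 (0.17, adjusted p 0.119) and without any 1 SM4 library (0.23 to 0.26, adjusted p 0.0601 to 0.107). Those lower in SM4 were VLDLR and 7 ER genes. VLDLR had a log2 fold change of -0.91 (± 0.0913 standard error, adjusted p 5.86e-07). CRELD2 was at -0.35 (± 0.0502 standard error, adjusted p 4.95e-05) and MANF at -0.31 (± 0.0499 standard error, adjusted p 0.000201) on the log2 scale. DNAJB9 was at -0.40 (± 0.104 standard error, adjusted p 0.0131), a call lost without SM4 replicate 1 (-0.31, adjusted p 0.101). SDF2L1 was at -0.27 (± 0.0709 standard error, adjusted p 0.0149), lost without SM4 replicate 3 (-0.23, adjusted p 0.0902). HSPA5 was at -0.13 (± 0.0377 standard error, adjusted p 0.025), lost without NC replicate 1 or SM4 replicate 1 or 3 (-0.13 to -0.12, adjusted p 0.0586 to 0.143). The sensor EIF2AK3 had a log2 fold change of -0.29 (± 0.0595 standard error, adjusted p 0.002), and XBP1 of -0.19 (± 0.0432 standard error, adjusted p 0.005). ATF4 and DDIT3 were not called here, at -0.09 (adjusted p 0.262) and 0.02 (adjusted p 0.947). Of the 8 amino acid genes all estimates lay above 0 (median 0.11, 2 called), and of the 12 ER folding genes all lay below 0 (median -0.10, 5 called). Of all tested genes 50.1% had an estimate below 0. Among genes with a mean of at least 10 CPM 50.4% did, and 19.9% were called. The number of folding genes called was 3 without SM4 replicate 1 or without SM4 replicate 3.

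Related genes that are not among the 36 were counted from lists written from general knowledge. Of 17 other ATF4 targets, 12 rose in SM2 against NC and 5 were not called, while in SM4 against NC 9 rose and 4 fell. ATF3, a stress-induced factor among them, rose in SM2 by 0.75 on the log2 scale (adjusted p 0.00331) and had a log2 fold change of 0.40 (adjusted p 0.117) in SM4. PPP1R15A, which lets eIF2 be dephosphorylated again, was among the 4 that fell in SM4 (-0.17, adjusted p 0.0469). Of 8 other amino acid transporters 5 rose in each comparison. Of 9 other genes of serine, proline and one-carbon metabolism 2 rose in each comparison. Of 20 cytosolic aminoacyl-tRNA synthetases, which charge tRNAs with amino acids, 5 rose and 4 fell in SM2, and 9 rose and 2 fell in SM4. Of 12 eIF2 kinases and eIF2 factors, 1 rose and 3 fell in each comparison. On the ER side, of 20 other folding and oxidation genes 2 fell in SM2 and 8 fell in SM4, where the list's median log2 fold change was -0.09. Of 25 genes of ER entry and export, 5 rose and 4 fell in SM2, and 1 rose and 8 fell in SM4 (median -0.08). Of 17 tested ER-associated degradation genes, 2 rose and 3 fell in SM2, and 1 rose and 3 fell in SM4. Of 11 genes of ATF6 processing and related factors, 5 rose in SM2 and 3 in SM4. These counts stand against 12% higher and 10.3% lower in SM2 and 11% higher and 10.2% lower in SM4 over all genes tested. Among genes with a mean of at least 10 CPM the shares were 15.1% higher and 17.3% lower in SM2, and 14.1% and 17% in SM4. Several of the counts lie near these shares, those of the ER-associated degradation genes among them, and do not set such lists apart from other genes.

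**Figure D4:**
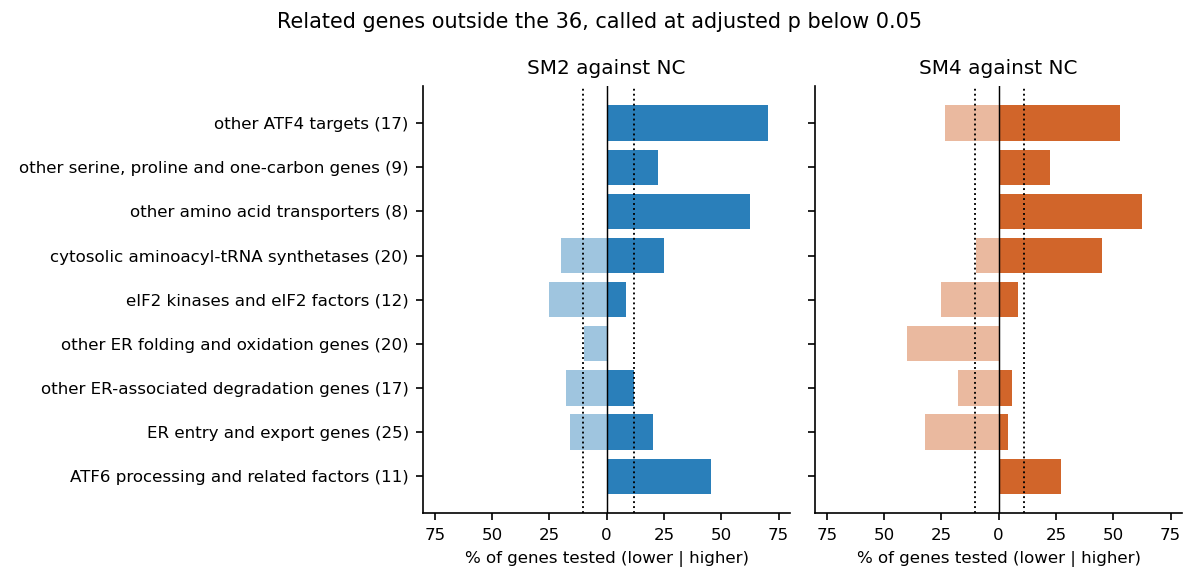
Share of the tested genes of each related list (number in brackets) that were called lower (pale, left) or higher (dark, right), in percent, for SM2 against NC and SM4 against NC. Dotted lines give the share over all tested genes; the 20 other folding and oxidation genes have 8 lower in SM4 against 2 in SM2, and the 17 other ATF4 targets have 12 higher in SM2 and 9 in SM4.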

How the data were processed

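RNA of OVCAR5 cells was sequenced in 9 libraries, 3 each labelled NC, SM2 and SM4, and groups were taken from the library titles. Raw counts per gene were deposited by the authors without normalization. Per the methods of the study, reads were checked with FastQC, aligned to hg38 with hisat2 and counted with Subread. The submitters' processing notes also name fastp and featureCounts. Versions, gene annotation and strand setting are not given in the sources used here. Labels and methods name different library kits and read layouts.

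Symbols, coordinates and overlaps came from GENCODE v44 (GRCh38), to which 60463 of 60649 identifiers matched, and 0 sample columns were left unused. In R 4.3.3 with edgeR 4.0.16, filterByExpr kept 19674 genes, TMM factors lay between 0.989 and 1.01, and all 9 libraries entered 1 quasi-likelihood model with the group alone. Adjustment (Benjamini-Hochberg) ran over all 19674 genes, and the common biological coefficient of variation was 0.0587. Levels are TMM-normalized CPM computed here from the counts. Counts carry no molecular identifiers, so counting error is a lower limit. The fit was tested on simulated data. The study used DESeq2, run here (version 1.42.0) as an alternative, beside other normalizations and filters, a replicate block and leaving out each library.

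The members, lists and tests were chosen with earlier results of these data known. The rule for named genes gave all 36 members by their levels or range, with fold changes where a member was called and always for ATF4, DDIT3, HSPA5 and XBP1. It also named METTL3, EIF2AK1, EIF2AK2, EIF2AK4, PPP1R15A and ATF3. Fold changes of members that were not called, and of PECAM1, MARS1 and the epithelial markers, were added after their values were seen. Promoter sequences are from RefSeq (GRCh38.p14), with windows for 33 members. No protein sequence was used here.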

Additional observations from a re-analysis of the deposited data

Results flagged for a closer look

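The members below differed between SM2 and SM4. This difference was itself tested, as SM4 against SM2 in the edgeR fit with p-values adjusted over 19674 genes. The shared NC libraries drop out of the fold change, but they still enter the gene filter and the estimate of the spread. Higher in SM4, by log2 fold change, were SLC7A11 at 0.48 (adjusted p 7.49e-06), PHGDH at 0.45 (adjusted p 2.67e-06) and SESN2 at 0.24 (adjusted p 0.0274). Lower in SM4 were VLDLR at -0.91 (adjusted p 5.86e-07), DNAJB9 at -0.40 (adjusted p 0.0131), CRELD2 at -0.35 (adjusted p 4.95e-05), MANF at -0.31 (adjusted p 0.000201), EIF2AK3 at -0.29 (adjusted p 0.002), SDF2L1 at -0.27 (adjusted p 0.0149), XBP1 at -0.19 (adjusted p 0.005) and HSPA5 at -0.13 (adjusted p 0.025). SLC7A11 is the 1 member called in opposite directions against NC, at -0.25 in SM2 and 0.23 in SM4. All 3 SM4 libraries lay beyond all 3 SM2 libraries for each of these 11 genes. Groups of 3 libraries are too small for a test of single outlying libraries.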

How the results depend on the processing

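Of the 43 calls of members in the 3 comparisons, 31 were kept in every one of 17 alternative fits, and the same number in every fit that left out a library. The number of members called was 13 to 15 for SM2 (15 in the report) and 12 to 21 for SM4 (17 in the report), each against NC, and 7 to 13 between SM4 and SM2 (11 in the report), where 7 was reached at an adjusted p below 0.01. At that stricter threshold 2 ER folding genes were called in SM4 against SM2 instead of 5, and the fits without 1 library gave 3 to 5. The gap between the medians of amino acid and ER folding genes ran from 0.065 to 0.16 in SM2 against NC and from 0.314 to 0.412 in SM4 against NC over the fits without 1 library. The lowest value in SM2, 0.065, came without SM2 replicate 3, and the lowest in SM4, 0.314, without NC replicate 3; the cause was not tested. HSPA5 in SM2 against NC (-0.02) ran from -0.037 to 0.001 over these fits, changing sign without SM2 replicate 2 (adjusted p 0.99), and DDIT3 in SM4 against SM2 (0.02) ran from -0.057 to 0.107, changing sign without SM2 replicate 1 (adjusted p 0.878). Neither was called. Upper-quartile normalization moved the share of higher calls over all genes from 53.9% to 58.6% in SM2 and from 51.9% to 58.3% in SM4. Deviations of same-numbered libraries correlated at -0.05 to 0.05, and those of other pairs at -0.065 to 0.092. In pairs with an NC library, same-numbered ones lay at 0.007 to 0.041 and the others at -0.028 to 0.009. These small values cannot decide whether replicate numbers pair the libraries. A replicate block raised the calls over all genes from 4389 to 4693 in SM2 against NC and from 4173 to 4484 in SM4 against NC. With a replicate block, the members called were 15 for SM2 and 19 for SM4, each against NC, and 11 between SM4 and SM2, and the block added 2 calls in SM4 against NC, ATF4 (adjusted p 0.0419) and HYOU1 (adjusted p 0.0494), the latter taking the ER folding genes called lower from 6 to 7. Members at 1 to 3 CPM (DDIT3, ASNS) rest on 54 to 181 counts per library, which limits what could be detected.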
